A study of Mus musculus with 12 samples.

Results

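The oxidative and non-oxidative enzymes of the pentose phosphate pathway, together with the cytosolic enzymes that make NADPH from malate and isocitrate, were followed in rods and whole retina of mice with and without rod Shp2. The members are 9 genes, G6pdx, Pgls, Pgd, Rpia, Rpe, Tkt, Taldo1, Me1 and Idh1, taken by symbol from a table of 56748 genes. All 9 were found, and all 9 passed the filter on low values in every comparison. The label was taken from what these enzymes do and not from their values.

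RNA was sequenced from retinas of 2-week-old mice in 4 groups of 3 libraries. Ribosome-bound RNA of rods was pulled down through an HA-tagged ribosomal protein (translating ribosome affinity purification, TRAP), and total retinal RNA was taken from the input to the pull-down. Rods and retina thus also differ as ribosome-bound and total RNA. Cell type and kind of RNA cannot be told apart in comparisons of rods with retina. Control mice (Het) were RiboTag;Shp2fl/+;i75-Rod-Cre, and knockout mice (KO) were RiboTag;Shp2fl/fl;i75-Rod-Cre. All mice of both groups thus carried the RiboTag allele and the i75 Cre, which is driven by the rhodopsin promoter, so that tagging and deletion occur in the same cells and the controls have already lost 1 copy of Shp2 in rods. The sample titles call the Het libraries wild type, while their genotype label names them Shp2_Rodhet. No group was homozygous for wild-type Shp2 and none lacked Cre. The sources do not say whether replicates came from separate mice or from pools, so every p-value measures the spread between these libraries, which may be in part technical.

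The pentose phosphate pathway branches from glycolysis at glucose 6-phosphate. Its oxidative branch yields NADPH and ribulose 5-phosphate, and its non-oxidative branch interconverts sugar phosphates, which supplies ribose for nucleotides and returns carbon to glycolysis. Rods use NADPH to reduce all-trans retinal, the photoproduct of rhodopsin, to retinol, to keep glutathione and thioredoxin reduced, and to build the lipids of the outer segment. Cytosolic malic enzyme and isocitrate dehydrogenase are further sources of cytosolic NADPH.

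Promoter sequences are shown for 4 members, G6pdx and Me1 because they hold the core of the antioxidant response element, and Taldo1 and Tkt because they catalyse consecutive exchanges of the non-oxidative branch and differed in opposite directions between rods and retina. Each is the 300-base RefSeq window of GRCm38.p6 from 250 bases before to 50 bases after an annotated start, written 5′ to 3′ on the strand of the gene, with capitals for the antioxidant response element core.
G6pdx (chrX:74428831-74429130, minus strand): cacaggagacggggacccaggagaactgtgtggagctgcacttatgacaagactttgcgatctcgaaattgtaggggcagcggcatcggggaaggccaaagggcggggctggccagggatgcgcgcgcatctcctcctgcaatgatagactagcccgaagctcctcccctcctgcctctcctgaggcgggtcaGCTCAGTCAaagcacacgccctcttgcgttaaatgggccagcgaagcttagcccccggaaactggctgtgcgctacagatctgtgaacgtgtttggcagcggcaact
Me1 (chr9:86695865-86696164, minus strand): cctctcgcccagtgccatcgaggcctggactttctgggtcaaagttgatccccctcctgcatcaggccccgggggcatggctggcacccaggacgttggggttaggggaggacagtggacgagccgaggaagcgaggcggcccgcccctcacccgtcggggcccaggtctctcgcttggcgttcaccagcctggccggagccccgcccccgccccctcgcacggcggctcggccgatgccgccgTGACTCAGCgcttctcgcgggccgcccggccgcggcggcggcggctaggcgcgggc
Taldo1 (chr7:141391910-141392209, plus strand): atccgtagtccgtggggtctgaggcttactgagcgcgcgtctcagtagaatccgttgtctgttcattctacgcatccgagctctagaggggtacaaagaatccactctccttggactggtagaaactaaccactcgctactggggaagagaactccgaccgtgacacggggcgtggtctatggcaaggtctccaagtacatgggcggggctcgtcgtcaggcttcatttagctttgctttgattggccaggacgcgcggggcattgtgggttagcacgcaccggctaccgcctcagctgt
Tkt (chr14:30548881-30549180, plus strand): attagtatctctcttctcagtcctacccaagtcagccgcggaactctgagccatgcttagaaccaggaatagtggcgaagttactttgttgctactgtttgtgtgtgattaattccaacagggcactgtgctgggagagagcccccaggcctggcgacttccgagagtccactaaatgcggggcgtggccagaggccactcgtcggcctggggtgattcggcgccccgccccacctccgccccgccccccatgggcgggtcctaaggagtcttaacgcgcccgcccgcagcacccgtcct
All 9 members had an entry, and 3 of them had more than 1 start site, which gave 12 windows. The antioxidant response element core, TGACNNNGC on either strand, was found in 3 of the 12 windows and in 12.4% of 32851 promoters of the same length. The match began 57 bases before the start of G6pdx, 6 bases before the first start of Me1, and at base 3 after the second start of Pgd. The E-box CACGTG (7.15% of promoters) and the CRX site CTAATCC (2.05%) were in none of the 12 windows, which says only that these letters are not there.

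Values are the deposited ones, scaled so that libraries can be compared and given per library in the order of replicates 1 to 3. The deposited totals were nearly equal within a fraction (16263948 to 16265259 in rods, 14525527 to 14527992 in retina), and the reads behind them were estimated at 11900000 to 25280000 per rod library and 9990000 to 19230000 per retina library. Markers of rods summed to between 2675665 and 3123457 in TRAP libraries and between 586199 and 726768 in whole retina, whereas markers of Müller glia summed to 2362 to 4080 and 44587 to 77497. Cones and bipolar cells were less depleted than Müller glia. Cone markers summed to 4959 to 8059 in TRAP libraries and 11151 to 12815 in whole retina, and bipolar markers to 3886 to 6138 and 12166 to 13670. Other neurons were strongly depleted. Amacrine markers summed to 584 to 902 in TRAP libraries and 8956 to 9887 in whole retina. Ganglion cell markers summed to 207 to 393 and 8134 to 9729, and horizontal cell markers to 27.3 to 62.4 and 767 to 1396. Ptpn11, which encodes Shp2, had scaled values of 2876, 2774 and 2783 in Het rods against 2006, 2398 and 2252 in KO rods. The groups did not overlap, but the log2 fold change of -0.26 (SE 0.09) did not pass the test (limma, adjusted p = 0.0636), and reads outside the deleted part of the gene do not show the deletion. A gradient with GC content separated the libraries. Between the 10% of genes with the most and the 10% with the least GC, the deviation of a library from its fraction was -0.81, -0.23 and -0.42 (log2) in Het rods against 0.42, 0.76 and 0.28 in KO rods, so that genotype and GC gradient cannot be told apart in rods. In retina the same measure was -0.24, 0.86 and -0.84 in Het and 0.01, -0.63 and 0.90 in KO, and Het retina replicate 2 and KO retina replicate 3 stood apart from the other 4. Rod and retina libraries numbered 2 of the KO were listed at 0 for 4 Y-linked genes, unlike the other 10 libraries. Xist had deposited values of 39 in this rod library and 1209 in this retina library, and 0 in the other 10. Sex as read from these genes was thus not balanced between the genotypes, and its part in the differences was not tested. G6pdx is X-linked, and whether sex bears on its values was not tested.

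G6pdx, glucose-6-phosphate dehydrogenase, commits glucose 6-phosphate to the pathway. Its scaled values were 2700, 2825 and 2954 in Het rods, 2723, 2434 and 2723 in KO rods, 1358, 1381 and 1213 in Het retina, and 1297, 1319 and 1235 in KO retina. Every rod library lay above every retina library, and the genotypes overlapped in both fractions. The enrichment in rods was 1.91-fold in Het (log2 fold change 0.93, SE 0.11; limma, adjusted p = 1.14e-04) and 2.01-fold in KO (1.01, SE 0.11; adjusted p = 4.41e-05). The lowest rod value belonged to KO replicate 2, listed at 0 for the Y-linked genes. KO retina replicate 2, also at 0 for them, had the highest KO retina value, 1319. The related gene G6pd2 had deposited values of 0 or 1 in the 12 libraries.

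Pgls encodes 6-phosphogluconolactonase, which opens the lactone made by G6pdx. It was a low gene, at 55.0, 147 and 99.6 in Het rods, 176, 258 and 181 in KO rods, 74.2, 195 and 55.7 in Het retina, and 99.3, 66.4 and 203 in KO retina. Its highest retinal values were in the 2 libraries that stood apart by GC content, and its transcript is the most GC-rich of the members at 65.9%. Rods and retina did not differ in Het (log2 fold change -0.17, SE 0.51; limma, adjusted p = 0.791; 95% interval -1.33 to 0.99) or in KO (0.84, SE 0.37; adjusted p = 0.0757; 95% interval -0.02 to 1.69) past the threshold. With the GC gradient removed the differences were 1.57 (adjusted p = 1.62e-04) and 1.74 (adjusted p = 4.09e-06), so the direction in Het depended on that step. The step also moved the median of all genes, from -0.11 to 0.36 in Het and from -0.02 to 0.38 in KO.

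Pgd, 6-phosphogluconate dehydrogenase, makes the second NADPH of the oxidative branch. Scaled values were 660, 670 and 721 in Het rods, 961, 1026 and 1039 in KO rods, 412, 512 and 309 in Het retina, and 417, 349 and 533 in KO retina. All KO rod values exceeded all Het rod values, and every rod value exceeded every retina value. The difference between rods and retina was 0.59 (SE 0.19; limma, adjusted p = 0.026) in Het and 1.22 (SE 0.16; adjusted p = 1.90e-04) in KO on the log2 scale. The Het call was lost when any 1 library other than Het retina replicate 2 was left out, with log2 fold changes of 0.32 to 0.63 and adjusted p-values of 0.0568 to 0.104.

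**Figure D1:**
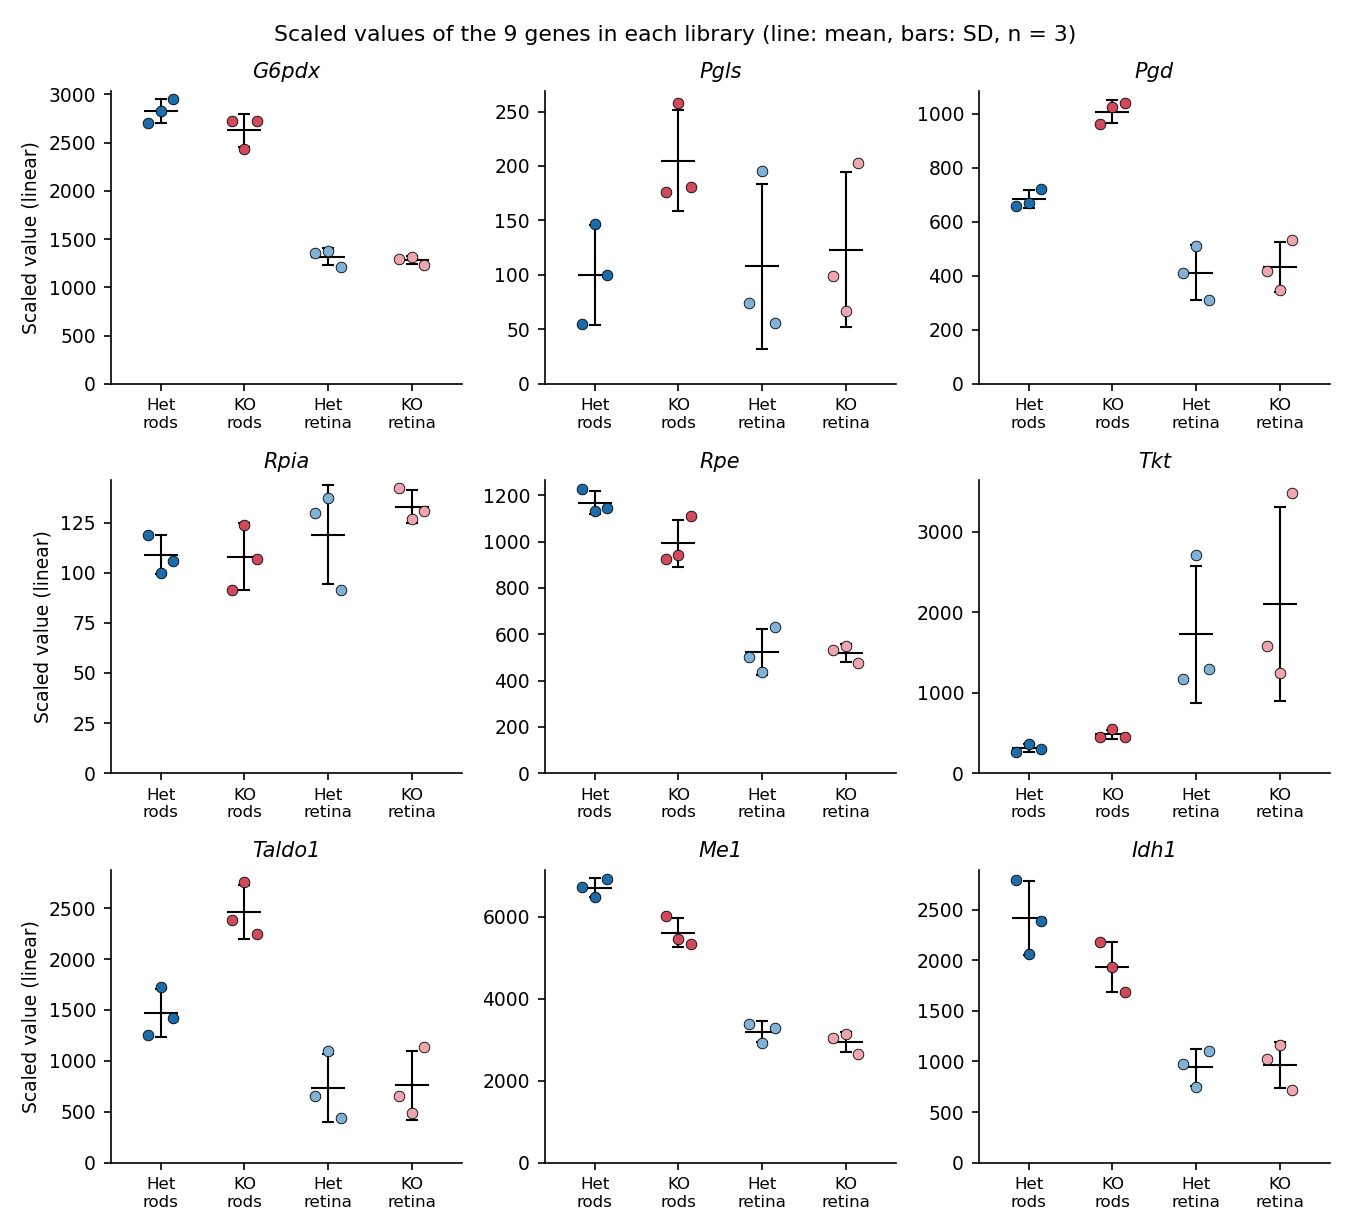
Scaled value (linear axis from 0) of each member in each library, by group; points are libraries, horizontal lines the mean and bars the SD of 3 libraries. G6pdx, Pgd, Rpe, Taldo1, Me1 and Idh1 lie higher in rods than in retina, Tkt lies lower, and Pgd, Tkt and Taldo1 lie higher in KO rods than in Het rods.

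Of the non-oxidative enzymes, Rpia (ribose-5-phosphate isomerase), which turns ribulose 5-phosphate into ribose 5-phosphate, was low throughout. It had 119, 100 and 106 in Het rods, 91.3, 124 and 107 in KO rods, 130, 137 and 91.3 in Het retina, and 142, 127 and 131 in KO retina. The genotypes overlapped in both fractions, and rods did not differ from retina past the threshold in Het (-0.28, SE 0.22; limma, adjusted p = 0.292) or KO (-0.33, SE 0.19; adjusted p = 0.156).

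Rpe is the gene of ribulose-5-phosphate epimerase, which makes xylulose 5-phosphate, and its symbol is unrelated to the retinal pigment epithelium. Values of 1226, 1132 and 1147 in Het rods with 924, 942 and 1110 in KO rods stood against 502, 439 and 633 in Het retina and 530, 551 and 477 in KO retina. Rods were 2.00-fold above retina in Het (log2 fold change 1.0, SE 0.15; limma, adjusted p = 3.89e-04) and 1.88-fold in KO (0.91, SE 0.13; adjusted p = 2.34e-04).

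Tkt, transketolase, moves 2-carbon units between sugar phosphates and was the only member called lower in rods with this scaling. It was at 266, 361 and 305 in Het rods against 452, 549 and 451 in KO rods, but at 1177, 2709 and 1292 in Het retina and 1577, 1248 and 3483 in KO retina. All rod values lay below all retina values, and all KO rod values above all Het rod values. The transcript was 5.83-fold lower in rods than in retina in Het (log2 fold change -2.54, SE 0.31; limma, adjusted p = 1.18e-04) and 3.99-fold lower in KO (-2.0, SE 0.33; adjusted p = 6.48e-04). In bulk retina, a lower share of the cells that hold a transcript and less transcript per cell cannot be told apart, and whole retina includes the rods. The highest Tkt values were in Het retina replicate 2 and KO retina replicate 3, which also had the highest summed Müller glia markers, 64405 and 77497 against 44587 to 59423 in the other 4 retina libraries. The same 2 libraries had the highest summed microglia markers, 479 and 552 against 231 to 325, and stood apart by GC content (0.86 and 0.90). Lens markers summed to 94.4, 196767 and 206889 in Het retina and to 55661, 136591 and 661278 in KO retina. Markers of the retinal pigment epithelium summed to 808, 1136 and 1440 in Het retina and to 181, 479 and 4381 in KO retina. The part of these other cells and of the GC gradient in the Tkt values was not tested. The paralogs Tktl1 and Tktl2 had deposited values of 1 to 8 and of 0 or 1.

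Taldo1, transaldolase, moves 3-carbon units between sugar phosphates. It had 1257, 1723 and 1424 in Het rods, 2382, 2761 and 2250 in KO rods, 658, 1100 and 440 in Het retina, and 658, 486 and 1136 in KO retina. KO rods were the highest group, with no overlap with Het rods. On the scale of the fit, 1 Het retina library reached into the range of Het rods. The log2 difference between rods and retina was 0.92 (SE 0.31; limma, adjusted p = 0.0279) in Het and 1.76 (SE 0.27; adjusted p = 4.34e-04) in KO. Leaving out Het rods replicate 2 or 3 or Het retina replicate 1 or 3 gave Het values of 0.53 to 0.94 with adjusted p-values of 0.064 to 0.0988, which did not pass the test.

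Me1, cytosolic malic enzyme, had the highest values of the members in every library on the scaled values before length was taken into account, except that Tkt was higher in KO retina replicate 3. They were 6724, 6474 and 6923 in Het rods, 6003, 5459 and 5341 in KO rods, 3385, 2920 and 3287 in Het retina, and 3030, 3134 and 2660 in KO retina. Rods exceeded retina by 0.90 (SE 0.10; limma, adjusted p = 7.52e-05) in Het and by 0.91 (SE 0.11; adjusted p = 1.28e-04) in KO on the log2 scale. Idh1, the cytosolic and peroxisomal NADP-dependent isocitrate dehydrogenase, had 2792, 2065 and 2392 in Het rods, 2177, 1935 and 1688 in KO rods, 980, 744 and 1103 in Het retina, and 1021, 1162 and 720 in KO retina. Its rod enrichment was 2.29-fold in Het (1.19, SE 0.17; adjusted p = 2.59e-04) and 1.99-fold in KO (1.0, SE 0.18; adjusted p = 0.00132).

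Taken over the list, 6 of 9 members were called higher in Het rods than in Het retina and 1 lower, with called used for an adjusted p under 0.05 together with a log2 change of more than 0.5 in size. Among all 16110 genes tested, 21.4% were called higher and 36.8% lower. The same 7 members were called in the same directions in KO, beside 25.7% of all genes higher and 36.5% lower. The median log2 fold change of the members was 0.90 in Het and 0.91 in KO, against -0.11 and -0.02 over all genes. Scaling by the library total alone moved the median of all genes to -0.51 in Het and -0.55 in KO. On that scale 3 members were higher and 2 lower in Het (7.18% and 46% of all genes), with Pgd at 0.18, Taldo1 at 0.50 and Me1 at 0.49 no longer called and Rpia at -0.69 called lower. In KO, 2 were higher and 2 lower (6.98% and 48.8% of all genes), with G6pdx at 0.47, Rpe at 0.37, Me1 at 0.37 and Idh1 at 0.46 no longer called and Rpia at -0.86 called lower. With the GC gradient removed, 7 were higher and 1 lower in both genotypes, where 42.9% of all genes in Het and 44.1% in KO were higher and 31.8% lower in each. That step moved the median of all genes to 0.36 in Het and 0.38 in KO. The enrichment of the 6 members is therefore relative to the other genes of the libraries, and Tkt was lower in rods on each of these scales.

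**Figure D2:**
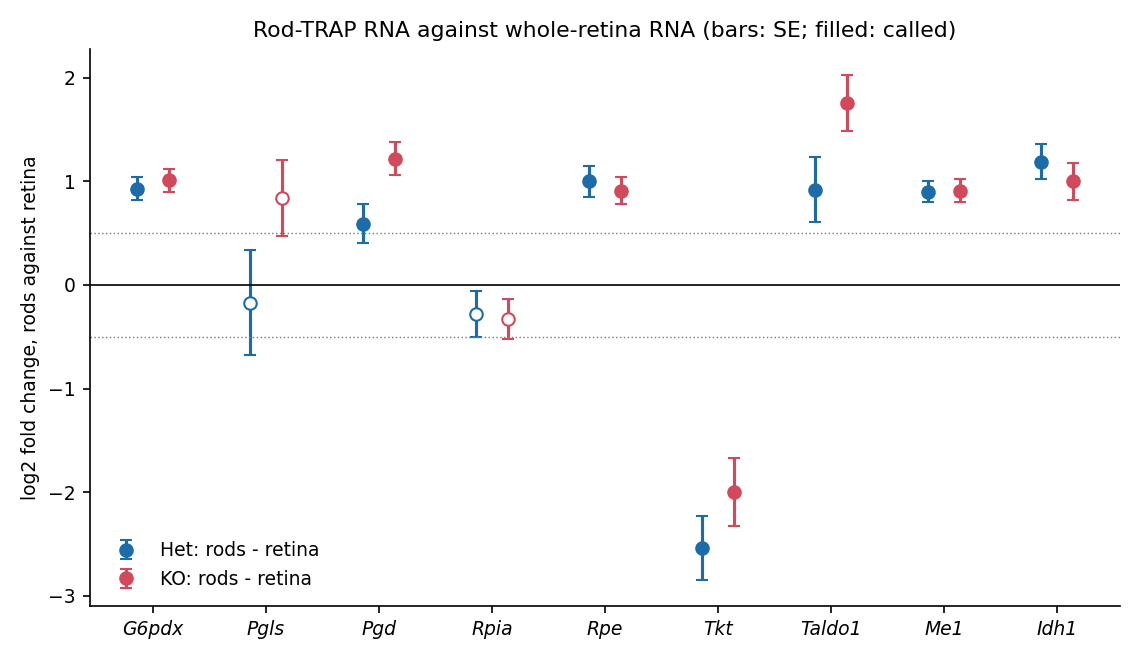
Log2 fold change of TRAP rods against whole retina for each member, Het in blue and KO in red; bars are SE, filled points passed the test and dotted lines mark the fold limit of 0.5. Tkt sits at -2.54 and -2.0, and the 6 members that passed upward lie between 0.59 and 1.76.

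Levels of the members were compared per kilobase of transcript, as scaled value per 1000 bases. In Het rods Me1 led with 2037 ± 68.3 (SD, n = 3), which was 32.8% of the sum over the members. Taldo1 (1078 ± 174), G6pdx (1066 ± 47.8) and Idh1 (1049 ± 158) followed and overlapped one another. Rpe (431 ± 18.6) and Pgd (308 ± 14.9) came next without overlap, and Tkt (96.3 ± 14.8), Pgls (94.6 ± 43.2) and Rpia (59.4 ± 5.30) formed the bottom of the order, each overlapping its neighbour. In KO rods Taldo1 (1809 ± 195) and Me1 (1701 ± 107) shared the top with overlapping values, G6pdx (990 ± 62.9) and Idh1 (840 ± 106) overlapped below them, and Pgd (455 ± 18.8) stood above Rpe (366 ± 37.8). Pgls (193 ± 43.4) and Tkt (150 ± 17.5) overlapped, and Rpia (58.9 ± 9.05) was last. In whole retina Tkt came after Me1 and Taldo1 in Het (536 ± 265) and directly after Me1 in KO (652 ± 374), with values that overlapped those of its neighbours Taldo1 and G6pdx or Me1. Me1 led in both, at 971 ± 74.4 and 894 ± 75.6. These lengths are those of 1 transcript per gene, so the order assumes that this transcript is the one expressed.

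The members fell into patterns over the 12 libraries that follow the fractions. The Pearson correlation of log2 values was 0.98 for G6pdx with Me1, 0.97 for Rpe with Me1, 0.97 for Idh1 with Me1, and 0.98 for Pgd with Taldo1, and that of Tkt with Idh1 was -0.98. Pgls was most like Taldo1 (0.74) and Rpia most like Tkt (0.56). After the group means were taken out, Taldo1 still varied with Pgls (0.95), Pgd (0.93) and Tkt (0.92), Me1 varied with Idh1 (0.89), and Taldo1 varied against Idh1 (-0.88). The first of these sets has transcripts of 53.6% to 65.9% GC and the second of 43.8% and 45.1%, and the points share the libraries with the GC gradient described above. Of 11741 genes measured in all libraries, those most like G6pdx were Gm48551 (0.998), Sntg2 (0.997) and Gm49300 (0.996).

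KO rods were compared with Het rods to ask which translated transcripts differ when the second copy of Shp2 is lost. Of the 9 members, 3 were called higher, namely Pgd, Tkt and Taldo1, and 0 were called lower. Among the 13055 genes tested, 11.2% were called higher and 1.91% lower. Pgd rose 1.56-fold (log2 fold change 0.64, SE 0.10; limma, adjusted p = 0.00275), Tkt 1.66-fold (0.73, SE 0.15; adjusted p = 0.00662) and Taldo1 1.79-fold (0.84, SE 0.14; adjusted p = 0.00439). These are 1 enzyme of the oxidative branch and the 2 that exchange carbon units in the non-oxidative branch. Each was higher in all 3 KO rod libraries than in all 3 Het rod libraries. The share of all genes that separated the groups in this way was not counted, for these genes or those below. The GC gradient separated the same libraries, so this separation adds no support. Pgls was also higher in every KO library and had the largest difference, 1.18 (SE 0.36), but did not pass the test (adjusted p = 0.0507). In a fit without the 5923 genes that the Het fractions had shown to be depleted from rods, Tkt was among those left out, and Pgd, Taldo1 and Pgls (1.19; limma, adjusted p = 0.0441) were called, beside 12.7% of the remaining 10076 genes called higher.

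G6pdx, the entry enzyme, had a log2 difference of -0.02 between the genotypes in rods, with a 95% interval of -0.19 to 0.14 (limma, adjusted p = 0.866). Rpia differed by 0.07 (95% interval -0.34 to 0.47; adjusted p = 0.818). The values of Rpe (-0.15, SE 0.09; adjusted p = 0.238), Me1 (-0.18, SE 0.08; adjusted p = 0.119) and Idh1 (-0.23, SE 0.13; adjusted p = 0.212) were below 0 and did not pass the test, although each Me1 value in KO rods lay below each in Het rods. The order of the 9 differences followed transcript GC content in large part. Rpe, Idh1 and Me1, with 39.1%, 43.8% and 45.1% GC, were the 3 members lowest in KO rods, and Pgls, with 65.9%, was the highest.

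Removal of the GC gradient left 1 member called, Taldo1 at 0.61 (SE 0.10; limma, adjusted p = 0.00566), beside 1.35% of all genes called higher. Pgd at 0.36 (SE 0.08; adjusted p = 0.0162) and Tkt at 0.46 (SE 0.11; adjusted p = 0.0266) kept an adjusted p below 0.05 but fell under the fold limit, and Pgls dropped to 0.08 (SE 0.19; adjusted p = 0.858). Rpe (0.13), Me1 (0.01) and Idh1 (-0.02) then lay close to 0, and G6pdx was at -0.18 (SE 0.06; adjusted p = 0.115). In a fit that took its spread from all 12 libraries, 0 genes of the whole table were called, with 3623 at an unadjusted p below 0.05, and Pgd, Tkt and Taldo1 were at 0.56, 0.64 and 0.75 (adjusted p = 0.182, 0.301 and 0.219). Amacrine markers were also higher in KO rods (690 to 902) than in Het rods (584 to 615), and their part in the differences was not tested.

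**Figure D3:**
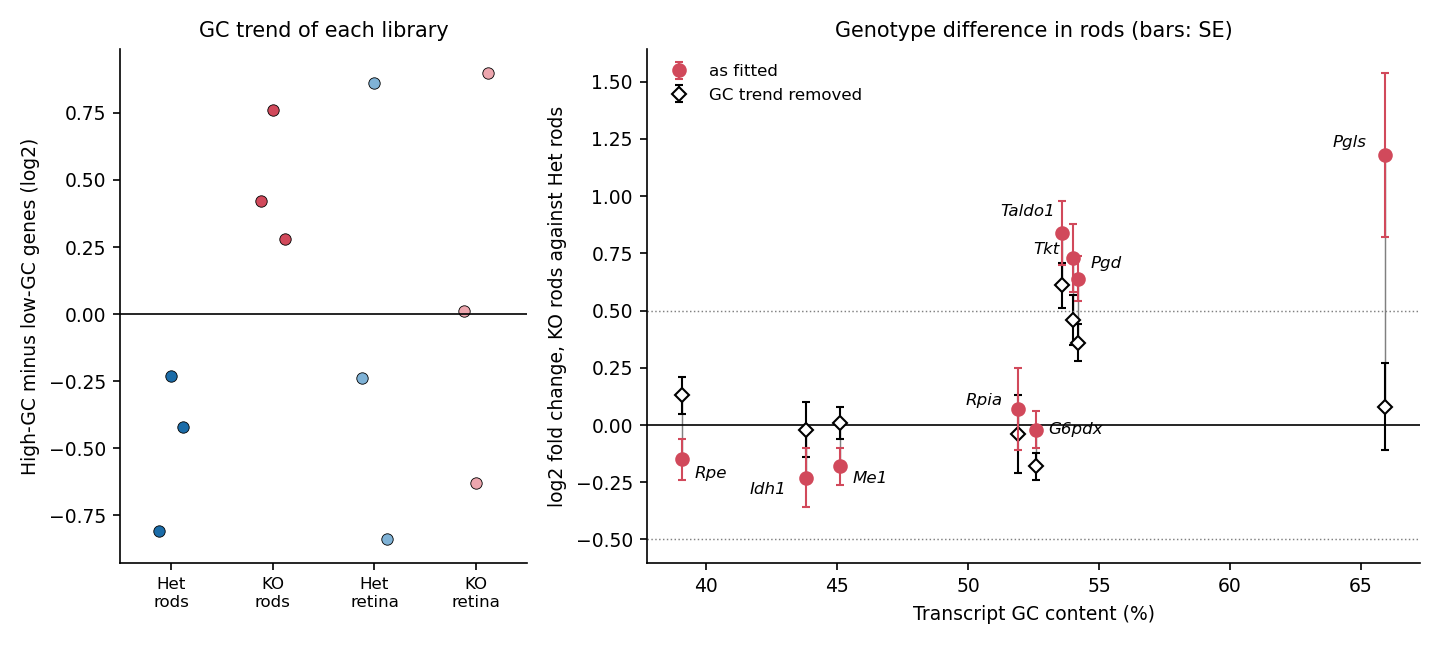
Left, the difference between GC-rich and GC-poor genes in each library (log2); right, the log2 fold change of KO rods against Het rods for each member against the GC content of its transcript (%), as fitted (filled circles) and with the GC gradient removed (open diamonds), with SE bars. KO rod libraries lie above 0 and Het rod libraries below it, and Pgls moves from 1.18 to 0.08 when the gradient is removed, and Taldo1 from 0.84 to 0.61.

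In whole retina the genotypes could not be separated for any member. Limma called 0 of 16863 genes (0%), with 140 at an unadjusted p below 0.05 and 0 members among them. Taldo1 differed by 0.04 on the log2 scale with a 95% interval of -0.89 to 0.98, Tkt by 0.23 (-0.81 to 1.26) and Pgd by 0.07 (-0.49 to 0.62). The differences found in rods lie within these intervals for Taldo1 and Tkt, and that of Pgd (0.64) lies just above the upper bound. The interval was narrowest for G6pdx (-0.05, from -0.35 to 0.24) and Me1 (-0.14, from -0.45 to 0.17). Whether the 2 fractions differed in their response to genotype was tested over all 12 libraries, and a difference was called for 0 of 17192 genes (0%; 604 at an unadjusted p below 0.05). It was 0.48 for Pgd (limma, adjusted p = 0.803), 0.69 for Taldo1 (adjusted p = 0.803) and 0.40 for Tkt (adjusted p = 0.83), so the genotype differences seen in rods are not shown to be particular to rods.

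**Figure D4:**
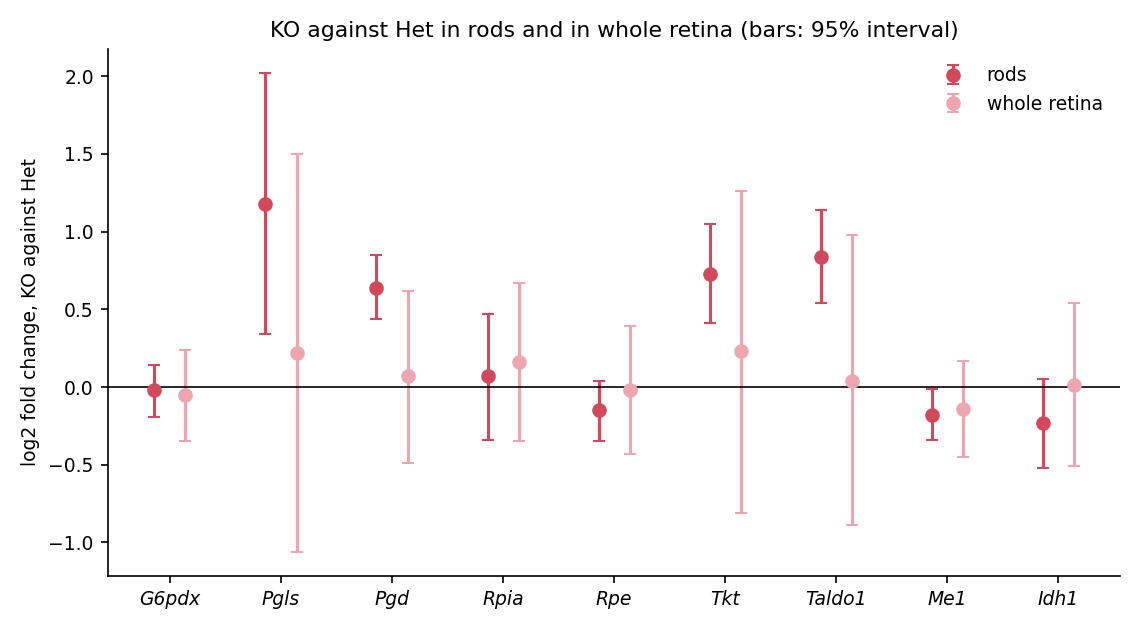
Log2 fold change of KO against Het for each member in rods (dark) and in whole retina (light), with 95% intervals. Intervals of Pgls, Pgd, Tkt and Taldo1 lie above 0 in rods and that of Me1 below 0, of which Pgd, Tkt and Taldo1 passed the test, and every interval in whole retina includes 0.

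The other genes of NADPH supply and use were 60 genes in 9 roles. Of the 54 tested in Het, 19 were higher in rods than in retina and 14 lower, beside 21.4% and 36.8% of all genes. In KO they were 26 and 15 of 54, beside 25.7% and 36.5%. The retinal reductases, which use NADPH to reduce retinal, had 5 of 6 higher and 0 lower in both genotypes. Rdh12, a photoreceptor retinol dehydrogenase, led them with 22702, 23775 and 25360 in Het rods against 6345, 6363 and 5761 in Het retina (log2 fold change 1.79, SE 0.11; limma, adjusted p = 2.24e-06), and Dhrs3 was 1.19 (SE 0.15; adjusted p = 1.37e-04). At the glucose 6-phosphate branch point, hexokinases Hk1 (1.41, SE 0.19) and Hk2 (1.67, SE 0.17) and the fructose bisphosphatase Tigar were higher in rods in both genotypes, while Gpi1, which carries glucose 6-phosphate into glycolysis, was called in KO (0.84, SE 0.17) and not in Het (0.33, SE 0.22), a difference between genotypes that was not called itself.

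The lower genes had the largest differences. Me3, a mitochondrial malic enzyme, had 2.29, 1.14 and 4.58 in Het rods against 132, 144 and 115 in Het retina (-5.02, SE 0.34), while Me2, the other mitochondrial form, was higher in rods (1.19, SE 0.11). Prps2, which makes phosphoribosyl pyrophosphate from ribose 5-phosphate, had 8.02, 3.41 and 10.3 against 142, 86.0 and 212 (-4.15, SE 0.42), while its paralog Prps1 was higher in rods (1.12, SE 0.13). Rods and retina thus differed in opposite directions for these 2 pairs in Het, and the same held in KO (Me3 -4.25, Me2 1.17, Prps2 -5.13, Prps1 0.97). The folate dehydrogenase Aldh1l1 (-3.70, SE 0.30), H6pd (-3.44, SE 0.32), which is the glucose 6-phosphate dehydrogenase of the endoplasmic reticulum, and the quinone reductase Nqo1 (-2.91, SE 0.37) were lower in rods too. Müller glia markers were lower in rods as well, with the sums given above, and their part in these values was not tested. Folds of such low genes are understated on the log2(value + 2) scale. In Het, Me3, Prps2, Aldh1l1, H6pd and Nqo1 passed the filter on low values only through the retina libraries, where they were high. Me3, Prps2 and Nqo1 did so in KO too. The filter thus favoured the lower direction for them, and their place among the lower genes counted here adds no support. The mitochondrial NAD kinase Nadk2, which makes NADP, was higher in rods (1.06, SE 0.11).

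By role, 4 of 7 tested further pentose phosphate enzymes were higher in rods (Shpk, Rbks, Dera and Prps1) and 3 lower (H6pd, Pgm2 and Prps2) in both genotypes. Of 10 tested further NADPH sources, 2 were higher (Me2 and Mthfd1) and 5 lower in Het, among them the mitochondrial isocitrate dehydrogenase Idh2, with 2 and 6 in KO. Among 4 genes of NADP supply and removal, Nadk2 was higher and the NADP phosphatase Noct lower in both. Of 4 thiol reductases, which pass electrons from NADPH to glutathione and thioredoxin, 1 was higher and 0 lower in Het (Gsr, glutathione reductase), with 2 and 1 in KO. The 7 genes of lipid and sterol synthesis split into 2 higher and 3 lower in Het and 3 and 2 in KO. Of 6 tested aldehyde, carbonyl and quinone reductases, 0 were higher and 2 lower in Het, with 1 and 2 in KO. Of 6 tested regulators, 1 was higher in Het and 4 in KO, with 0 lower. With the library total as the only scaling, 11 of the other genes were higher and 19 lower in Het (7.18% and 46% of all genes), and 10 and 17 in KO (6.98% and 48.8%), so the split between directions moved with the scaling here too. With the GC gradient removed it was 31 and 10 in Het (42.9% and 31.8% of all genes), and 33 and 12 in KO (44.1% and 31.8%).

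**Figure D5:**
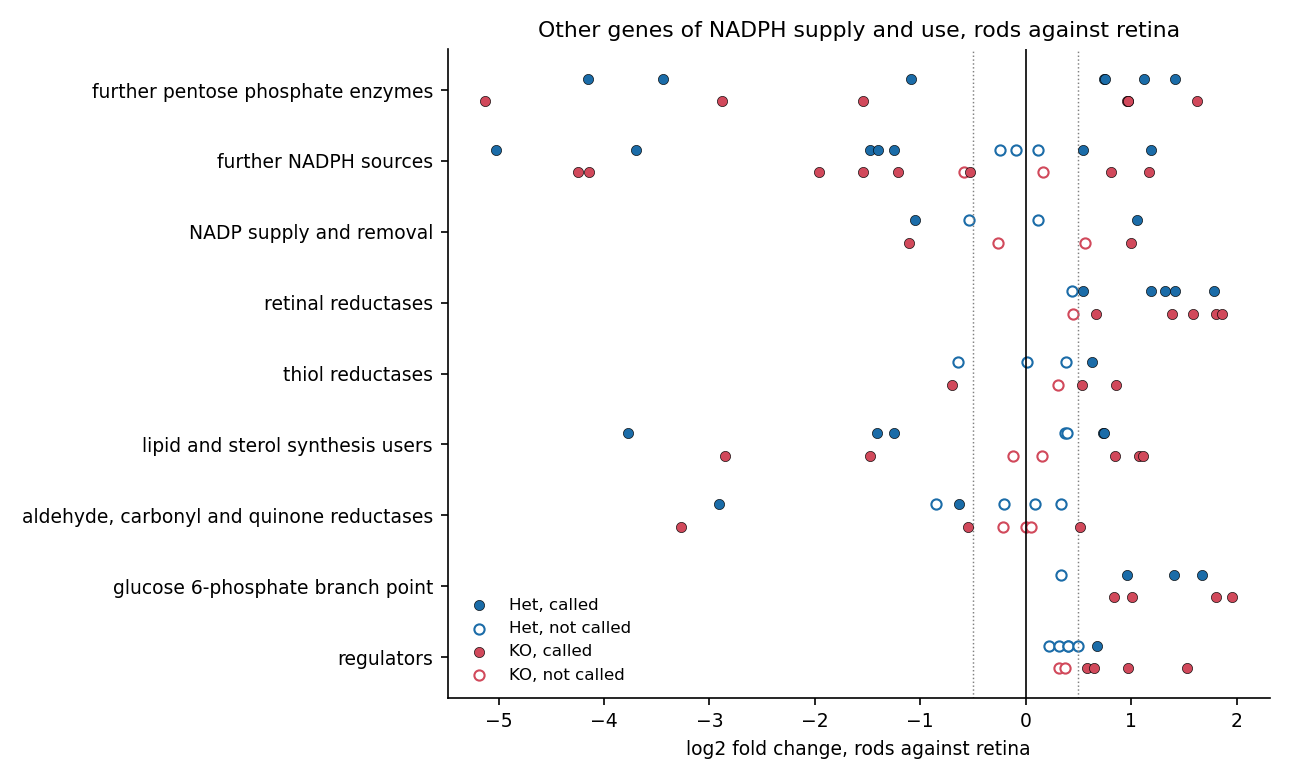
Log2 fold change of rods against retina for the other genes of NADPH supply and use, by role, Het in blue and KO in red; filled points passed the test. All retinal reductases and branch point genes lie to the right of 0, and the lowest values belong to Me3 and Prps2.

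Between KO and Het rods, 6 of 49 tested genes of these roles were higher and 0 lower, beside 11.2% and 1.91% of all genes tested, so that their share was near that of the whole table. Among them were the fatty acid synthase Fasn (1.26, SE 0.15; limma, adjusted p = 0.00231), the cytochrome P450 reductase Por (0.87, SE 0.12), Blvrb (1.04, SE 0.36), Sirt2 (0.64, SE 0.13) and Srebf1, a regulator of fatty acid synthesis (1.03, SE 0.24). Fasn had 262, 406 and 300 in Het rods against 734, 744 and 676 in KO rods, with no overlap, and was the only 1 of the 6 still called with the GC gradient removed (0.67; adjusted p = 0.00377). Blvrb was low, between 6.87 and 11.4 in Het rods and up to 25.4 in KO rods, and its call (adjusted p = 0.0496) was lost under other scalings, a pseudocount of 0.5, no filter and the replicate block (limma, adjusted p = 0.0503 to 0.0648), and without Het rods replicate 1 or 3 (adjusted p = 0.117 and 0.115). Blvrb passed the filter on low values only through the KO rod libraries, where it was high. Without any 1 of these it was not tested, so its place among the 6 adds no support. Fewer of the genes of these roles were called, 3, when KO rods replicate 2 was left out, beside 891 of all 12907 genes called higher. The retinal reductases had 0 of 6 called, and Rdh12 differed by 0.05 (SE 0.07). In whole retina, 0 of 55 were called.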

How the data were processed

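Retinal RNA of 2-week-old mice was amplified with SMART-Seq V4 and sequenced, as TRAP pull-downs (rods) and inputs (whole retina), with 3 libraries per genotype and fraction. The signal values deposited by the authors were whole numbers with nearly equal totals within a fraction, from which it was inferred that the authors had scaled and rounded them, so they were not treated as raw data. The submitters' processing notes name CASAVA 1.8.2, HISAT2, DESeq2, edgeR and GRCm39, with roles not given in the sources used here. Read numbers were estimated from the scaling, and a floor of 3 reads was 1.19e-05% to 3.00e-05% of a library, which covers counting error only.

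Genes with a value of 10 in at least 3 libraries of a comparison and a sum of 15 were kept, scaled by trimmed means of M values, and tested on log2(value + 2) with limma 3.58.1 in R 4.3.3 (trend, robust), on the groups compared only, with Benjamini-Hochberg adjustment over all genes tested. Printed values per library were scaled over all 12 libraries on 17192 genes, so they differ slightly from the values fitted. The GC gradient was removed per library by lowess (span 0.3) against the GC content of GENCODE M21 transcripts, which were also the source of lengths. Members and gene lists were chosen with earlier results of these data known. Named beside the members were the other listed genes that were called, with values for at most the 6 largest changes per comparison, and the 2 highest of each role. Same-numbered Het rod and Het retina libraries deviated together (r = 0.43, 0.38 and 0.24) and were treated as paired in the fit with a replicate block, with no such statement in the labels. The code was tested on simulated data. The values of 1 gene that the naming rule selects are not reported here, and it is included in the counts.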

Additional observations from a re-analysis of the deposited data

How the results depend on the processing

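The deposited values were already scaled, 3 libraries per group limit precision, and the sources do not state how libraries relate to mice. Of 2095 values compared with an alternative, 1925 stayed on their side of the threshold, 14 passed it newly, 152 no longer passed it and 4 reversed. Of these, 64 values that passed no threshold changed sign or came to 0.00 after rounding, and lay within 0.39 of 0. Reversed were Pgls in Het rods against Het retina, at 1.57 both with the GC gradient removed and with the replicate block added to that, and, with the library total as the only scaling, Txnrd1 (-0.00) and Akr1a1 (-0.03) in KO rods against KO retina. That scaling left 4 members and 27 other genes called in this comparison.

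For KO rods against Het rods, removal of the GC gradient left 1 member and 1 other gene, alone or with the replicate block. The fit over 12 libraries left 0 and 0, and removal of the GC gradient and of genes lower in rods, chosen after seeing the data, left 1 and 0. The causes were not tested. With 1 library left out at a time, members called ranged from 5 to 7 for Het rods against Het retina, 7 to 8 for KO rods against KO retina and 3 to 4 for KO rods against Het rods, and were 0 to 0 in retina and for the difference between fractions. Other genes called ranged from 22 to 31, 31 to 40 and 3 to 8. Over all genes tested, those called higher for Het rods against Het retina ranged from 2225 of 13394 to 3065 of 16008. They ranged from 2414 of 13458 to 3820 of 16022 for KO rods against KO retina. For KO rods against Het rods they ranged from 794 of 12868 to 1596 of 12909. In the same order, those called lower ranged from 3114 to 5698, from 3387 to 5708 and from 93 to 347. Pgls was gained without KO retina replicate 3 (1.07; limma, adjusted p = 0.00638) and, between genotypes in rods, without Het rods replicate 2 (1.5; limma, adjusted p = 0.00927) and with a pseudocount of 8 (1.12; limma, adjusted p = 0.0471). Without both retina libraries that stood apart, chosen after seeing the data, 6 members were higher and 1 lower in Het, and 7 and 1 in KO. Of all genes, 2725 of 13398 were then higher and 3609 lower in Het, and 3098 of 13471 and 3914 in KO. Each of these comparisons holds only 1 of the libraries that stood apart. They are thus the same fits as those without Het retina replicate 2 and without KO retina replicate 3, and no further check. Between KO and Het retina, where both drop out, 3 of 16283 genes were called higher and 2 lower, with 0 members among them.

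With the replicate block, 4 members were called between KO and Het rods, Pgls being the addition (limma, adjusted p = 2.03e-04), but same-numbered libraries of these groups correlated at 0.10, 0.02 and 0.04 and share only a number. The block called 1589 of all 13055 genes higher and 297 lower. In KO, same-numbered rod and retina libraries correlated at 0.31, 0.02 and 0.20, and at 0.30, 0.20 and 0.34 with the GC gradient removed. KO libraries with different numbers then correlated at -0.28 to -0.01. The block changed no member call between rods and retina in either genotype.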
